A study of Caenorhabditis elegans with 2 samples.

Results

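LIN-26::GFP was mapped by chromatin immunoprecipitation and sequencing in whole young adult Caenorhabditis elegans at 64 hours. The 891 peaks described here have their summit in the promoter window of protein-coding genes of 1 strand only. A promoter window held the 1000 bp before and the first 200 bp after an annotated 5' end, and summits within 500 bp of a tRNA, snoRNA or snRNA gene were left out. These single-strand promoter peaks made up 28.0% of the 3187 nuclear peaks in the less strict list built from both replicates, which also holds 14 mitochondrial peaks. Of the other nuclear peaks, 643 had a summit near a short RNA gene, 192 lay in windows of genes of both strands, called divergent promoters here, and 1461 lay outside all promoter windows. Genes on the plus strand had 461 of the single-strand promoter peaks and genes on the minus strand 430.

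The 2 samples are biological replicates of 1 group, and no other genotype, age or tissue was compared. The animals were of strain RW12178, in which GFP was inserted at lin-26 by CRISPR together with an unc-119(+) marker between loxP sites, in the unc-119(tm4063) III background. They were synchronised as starved L1 larvae after bleaching. The precipitation used sonicated chromatin of whole organisms and, per the sample description, an antibody against GFP, while the antibody field names lin-26, so the peaks cannot be assigned to a tissue, and strong binding in few cells cannot be told apart from weaker binding in many. The lists carry no read counts, so the depth is unknown.

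LIN-26 is a zinc-finger protein of nematodes, best known because epidermal cells and the support cells of sense organs need it to keep their fate. A promoter is the stretch before a gene where transcription factors and RNA polymerase II assemble. In C. elegans the annotated 5' end of a gene is often the site where a spliced leader is joined, so the true start of transcription can lie further upstream. The summit is the base of highest signal in a peak, and the signal value is the peak's strength as the authors' lists give it. Signal values rank peaks within 1 list and are not on a common scale between lists.

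The sequence under the summits differed in its motifs from the DNA beside it. The stretches below are 150 bases centred on the summit, written on the strand of the gene, from the RefSeq sequence of WBcel235. The stretches with a motif were chosen only among members on chromosomes II, III, IV, V and X. Of these members, the first 3 are the strongest, in both replicates' own lists, that hold an EOR-1-like element. It is known from the C. elegans zinc-finger factor EOR-1. Capitals mark that element, GAGACGCAG or its reverse complement. The hsp-3 stretch is X:6092121-6092270, 72 bp upstream of the gene for an endoplasmic reticulum chaperone of the heat shock 70 family. The epn-1 stretch is X:14818928-14819077 at the epsin gene, and the third is V:18967760-18967909, next to the 5' end of Y39B6A.43.
hsp-3: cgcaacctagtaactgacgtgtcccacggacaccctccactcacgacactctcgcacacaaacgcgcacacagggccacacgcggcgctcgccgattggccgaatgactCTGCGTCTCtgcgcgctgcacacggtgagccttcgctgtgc
epn-1: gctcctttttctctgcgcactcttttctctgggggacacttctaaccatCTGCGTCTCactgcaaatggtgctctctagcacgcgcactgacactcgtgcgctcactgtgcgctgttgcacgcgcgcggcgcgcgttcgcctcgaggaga
Y39B6A.43: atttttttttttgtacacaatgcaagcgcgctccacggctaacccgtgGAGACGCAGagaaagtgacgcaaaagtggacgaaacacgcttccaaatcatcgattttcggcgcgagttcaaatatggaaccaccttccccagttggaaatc

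The next stretch is the strongest member on those same chromosomes that holds a GA repeat, GAGAGA on either strand, in capitals. It lies at III:8043887-8044036, 525 bp upstream of K12H4.5. The stretch at rpl-3, III:3867500-3867649, is shown because it was the second strongest of all 891 peaks and held none of the 8 motifs that were more frequent at summits.
K12H4.5: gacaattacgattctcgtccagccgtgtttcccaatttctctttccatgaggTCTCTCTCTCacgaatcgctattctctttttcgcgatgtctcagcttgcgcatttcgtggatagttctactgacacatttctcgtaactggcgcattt
rpl-3: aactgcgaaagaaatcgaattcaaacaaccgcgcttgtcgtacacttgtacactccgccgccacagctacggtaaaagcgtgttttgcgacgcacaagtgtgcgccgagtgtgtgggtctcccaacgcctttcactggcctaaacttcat

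Several of the strongest peaks carried a different kind of sequence, the internal promoter elements of tRNA genes, although no annotated tRNA gene lay within 500 bp. RNA polymerase III genes such as those for tRNAs are started from an A box and a B box inside the gene. The stretches below run from 5 bases before an A box core, AGTGGNTA, to 15 bases after a B box, GTTCNANNC, both in capitals, on the strand that holds them. They are the members among the 25 strongest with both boxes on 1 strand, the B box starting 20 to 90 bases after the A box. They lie at V:5592084-5592150 (vps-37), IV:8964250-8964317 (tpra-1), V:3686060-3686125 (W08A12.2), IV:2664250-2664317 (gfrl-1) and III:1599133-1599200 (sms-3). A weaker peak, at bath-46 (II:1597308-1597375), is added because its stretch matched that at tpra-1 in 65 of 68 bases.
vps-37: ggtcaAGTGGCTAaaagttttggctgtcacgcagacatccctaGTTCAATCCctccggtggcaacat
tpra-1: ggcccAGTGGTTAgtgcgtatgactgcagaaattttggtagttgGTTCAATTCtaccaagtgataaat
W08A12.2: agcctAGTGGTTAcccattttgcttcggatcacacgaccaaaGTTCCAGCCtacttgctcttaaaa
gfrl-1: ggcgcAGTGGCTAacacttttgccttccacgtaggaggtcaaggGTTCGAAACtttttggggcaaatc
sms-3: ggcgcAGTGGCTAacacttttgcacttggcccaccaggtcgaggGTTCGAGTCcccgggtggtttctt
bath-46: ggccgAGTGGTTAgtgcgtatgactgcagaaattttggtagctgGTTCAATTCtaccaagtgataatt

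These paired boxes were rare and concentrated at strong peaks. They stood in 10 of the 891 summit windows of 150 bp (1.12%), in 0 of 1782 flanking windows centred 400 bp to each side, and in 45 of 153101 stretches of 150 bp (0.0294%) cut from all bases where a summit would count as a member. Among the 25 strongest members 5 had the pair, and among the 791 members beyond the 100 strongest 3 had it. Divergent promoter peaks had it in 0 of 192 windows, peaks outside promoters in 36 of 1461, and peaks within 500 bp of annotated short RNA genes in 99 of 643. These letters were searched after the sequences of the strongest members were seen, so the counts are a description with no test.

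The 10 members with paired boxes had signal values from 117 to 413, with a median of 270, against a median of 107 for the other members. In both replicates' own lists stood 8 of the 10, against 20.8% of all members. All 10 stood in the conservative list, against 71.8% of all members. The nearest annotated tRNA, snoRNA or snRNA gene was at least 2958 bp away. At gfrl-1 the pair lay at an annotated pseudogene, and at the other 9 none was annotated within 100 bp. The B box started 37 to 39 bases after the A box in every pair. The stretches at tpra-1, bath-46, Y116A8A.150 and F07G6.5 were near-copies of one another, the same in 91.2% to 95.6% of 68 bases. Reads from near-copies may be placed at the wrong copy.

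Over all 891 members, 8 of 21 motifs were more frequent in the 150 bp summit window than in the flanking windows, and 6 were less frequent. The motifs were chosen with earlier results of these data known, so their p-values are no independent support. The GA repeat was the most common of the 8. It occurred in 217 summit windows, or 24.4% (95% Wilson interval 21.7 to 27.3), against 9.93% of flanks (two-sided Fisher exact test, Benjamini-Hochberg adjusted p = 1.7e-20). The EOR-1-like element had the steepest ratio. It occurred in 55 windows (6.17%) against 0.898% of flanks, a fold of 6.88 (exact test, adjusted p = 1.5e-13). Both elements stood together in 33 windows, and 239 windows held at least 1 of them.

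GC-rich and E-box elements were also more frequent. The KLF/Sp form CCGCCC, a site of zinc-finger factors of that family, occurred in 9.88% of summit windows against 2.81% of flanks (exact test, adjusted p = 4.9e-13). The form CCACCC of the same family occurred in 6.29% against 2.97% (exact test, adjusted p = 0.00019). The E-box CACGTG, bound by basic helix-loop-helix factors such as MYC and TFEB relatives, had 6.06% against 2.75% (exact test, adjusted p = 0.00019). The E2F site GCGGGAA had a fold of 2.00 (27 windows, exact test adjusted p = 0.020), and the B box core GGTTCGA had a fold of 3.14 (22 windows, exact test adjusted p = 0.0019). The nuclear receptor site AGGTCA had a fold of 1.47 and passed narrowly (exact test, adjusted p = 0.043). It did not pass in most of the 12 alternatives that had a test. With replicate 1's own list alone, 3 of the 8 passed, the GA repeat, the EOR-1-like element and CCGCCC.

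AT-rich elements were less frequent at the summit than beside it. Runs of 8 T on the strand of the gene occurred in 3.48% of summit windows against 10.2% of flanks, and runs of 8 A in 2.36% against 6.85%. The GATA site TGATAA, the element of the GATA factors that act in epidermis and intestine, had 8.31% against 13.3% (exact test, adjusted p = 0.00028). The others were the splice acceptor TTTTCAG (fold 0.473), the heat shock element GAANNTTC (0.615) and the TATA box TATAAA (0.663). The last of these reversed against stretches of matched GC content (1.30). Base composition moved with these differences. Summit windows had a mean GC content of 45.8%, flanks 37.1%, and the eligible stretches 35.2%. When those stretches were weighted to the GC content of the summit windows, the GA repeat still had 1.79 times the weighted share. The EOR-1-like element had 2.76 times that share. CCGCCC had 1.23, CCACCC 1.09, CACGTG 1.46, E2F 1.31, AGGTCA 1.34 and the B box core 1.77 times. Among the less frequent elements the GATA site had 0.934 times the weighted share, the splice acceptor 0.876, T runs 0.787 and A runs 0.779.

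**Figure D1:**
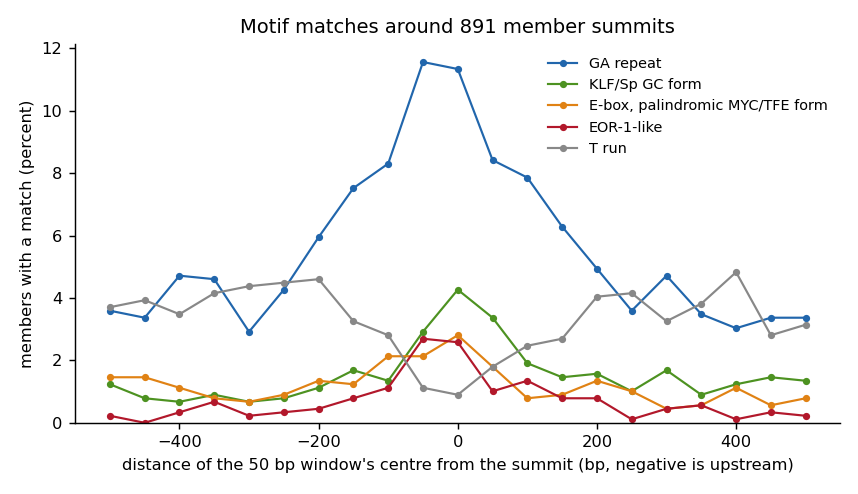
Percent of the 891 members with a motif match starting in a 50 bp window, against the distance of that window from the summit in bp, with upstream to the left. The GA repeat climbs to 11.6% and 11.3% in the windows at -50 and 0 bp from 2.92% at -300 bp, the EOR-1-like element and both other site kinds are highest within 50 bp of the summit, and the T run is lowest there at 0.898%.

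A search with no motif given returned parts of the GA repeat and the EOR-1-like element, and CG-rich sequences that belong to none of the 8 motifs. Sequences of 6 bases were ranked by their excess on the first 3 chromosomes, and the first 20 were tested at the 424 members on IV, V and X. All 20 passed there. GAGAGA had 25.7% against 8.27% of eligible stretches, a fold of 3.11. ACGCAG, the end of the EOR-1-like element, had 13.9% against 3.12% (fold 4.46), and the CG-rich ACGCGC had the steepest ratio, 5.51. These shares were not weighted to GC content, which averaged 45.8% in all summit windows and 35.2% in all eligible stretches. The fold of CCGCCC over all eligible stretches was 3.54 unweighted and 1.23 weighted. Matches are letters in the sequence and do not show that a factor was bound there.

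The GA repeat changed little with signal, and the EOR-1-like element was most frequent in the strongest group. The GA repeat stood in 22.4%, 22.9%, 25.7% and 26.5% of the members in 4 groups of 222 or 223 ordered from weak to strong signal. The EOR-1-like element stood in 5.38%, 4.93%, 4.50% and 9.87%. Members with the EOR-1-like element had a median signal of 117, and those without it 107.

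Motif shares at divergent promoter peaks did not differ past the threshold at this number of peaks. Of 17 motifs that can be read on both strands, 0 differed between the 891 single-strand and the 192 divergent promoter peaks after adjustment, and 1 had an unadjusted p under 0.05. That one was the B box core, with 22 windows against 0 (Fisher exact p = 0.022, adjusted p = 0.32). The GA repeat had 24.4% and 21.4%, and the EOR-1-like element 6.17% and 5.21%. Mean GC content was 45.8% and 45.9%. These tests do not show that both kinds of promoter are alike, as the interval for the GA repeat at divergent promoters ran from 16.1% to 27.7%.

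The strength of the peaks ran from a signal value of 3.23 to 935, with a median of 107. Few reached the top of the list, as 9 of the 100 strongest nuclear peaks and 79 of the 600 strongest were members. The median was 111 at divergent promoters and 102 outside promoters, against 214 near short RNA genes. On the log2 scale the mean of the members minus that of divergent promoter peaks was -0.08 (permutation test, adjusted p = 0.28) and minus that of peaks outside promoters 0.08 (permutation test, adjusted p = 0.078). Neither difference passed the threshold of 0.05.

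The strongest member was a peak at I:4466909-4467208, 801 bp upstream of T01A4.9 and inside an intron of eri-6, a helicase gene of small RNA pathways on the same strand. A lincRNA gene, linc-104, had the nearest 5' end of any gene class, 611 bp from the summit. The peak's signal was 935 in the list of both replicates, 352 in the ranked list of replicate 1 and 585 in that of replicate 2. The peak at rpl-3, for a protein of the large ribosomal subunit, had 729, 279 and 464 in the same 3 lists. Its summit lay 279 bp upstream of the annotated 5' end, outside any gene. Both replicates thus held these peaks near the top, at ranks 14 and 22 of replicate 1's 55940 nuclear peaks and at ranks 8 and 13 of replicate 2's 75474.

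The next peaks lay at genes of varied function. At dhs-8, for a short-chain dehydrogenase, the signal was 496, but the summit lay 993 bp upstream. It was inside the ncRNA gene K10H10.14 and 58 bp before the ncRNA gene K10H10.11. At cox-5B, for a subunit of cytochrome c oxidase, the signal was 462 with the summit 5 bp upstream. At mog-4, for a splicing helicase that acts in germline sex determination, it was 429. At vps-37, for a subunit of the ESCRT-I sorting complex, it was 413, and this is the strongest of the peaks with paired boxes. At rpa-2, for replication protein A, it was 385 with the summit 663 bp upstream. All 25 of the strongest members were in both replicates' own lists and in the conservative list. Of all 891 members, 185 were in both own lists and 640 in the conservative list. Signal comes from a list made from both replicates, so this is no independent support.

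Members of higher signal were more often in both replicates' own lists. That signal comes from a list made from both replicates, so the 2 measures are not independent. Of the 891 members, 185 (20.8%) were in the thresholded lists of both replicates, matched where peaks share at least 50% of the shorter one, where 29.2% of all nuclear peaks did. The conservative list held 640 members (71.8%), where it held 74.2% of all nuclear peaks. In the same 4 groups, from weak to strong, 1, 3, 35 and 146 members were in both own lists. Replicate 2 held 280 members that replicate 1 did not, replicate 1 held 43 that replicate 2 did not, and 383 were in neither own list. The divergent promoter peaks had a share of 22.4% in both (Fisher exact p = 0.63) and the peaks outside promoters 17.6% (p = 0.057, adjusted p = 0.11).

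The ranked lists hold peaks before thresholding, and the members come from a list made from both replicates, so matches there are no independent support. In them 859 members had a matching peak in replicate 1, with a median signal of 46.3, and 870 in replicate 2, with a median of 66.1. Across the 844 members matched in both, the Spearman correlation of the signal values was 0.416, and across the 185 in both own lists it was 0.671. Peaks are not independent replicates, and the points share 2 libraries and their control.

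**Figure D2:**
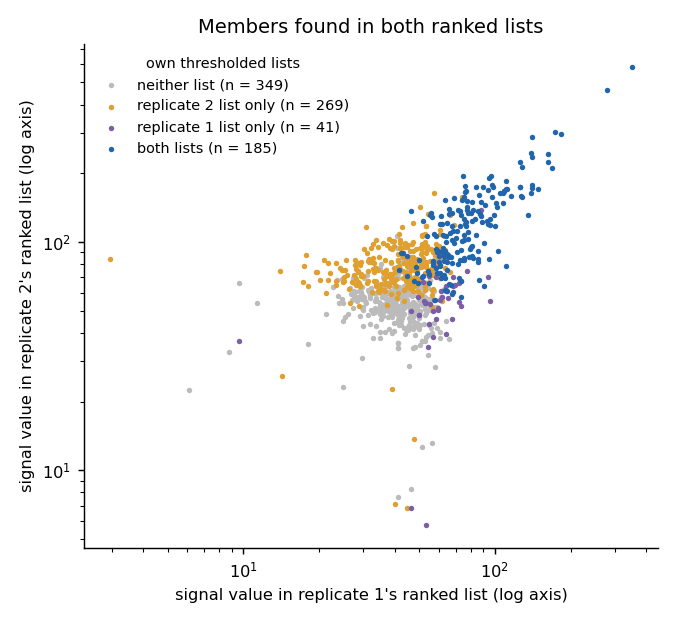
Signal value of the matching peak in replicate 1's ranked list against that in replicate 2's, for the 844 members matched in both, on log axes. The 185 members in both own lists form the upper right of the cloud, and most single-list members are those of replicate 2.

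The weakest members overlapped other peaks of the list. All 54 members with a signal under 60 overlapped another peak of the same list, against 125 of all 891, and 0 of the 54 were in both own lists. The lowest stood at C05D11.13 with 3.23 and had no matching ranked peak in either replicate. The next, at C13G3.1 with 4.23, had 51.3 in replicate 1 and 12.6 in replicate 2. At the edge of the rule, 26 summits within 50 bp inside the upstream limit had a median signal of 98.2, and 39 within 50 bp outside it had 95.4.

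Summits were spread over the whole promoter window, with a modest excess near the 5' end. From 200 bp upstream to 100 bp downstream of the nearest 5' end lay 282 summits, or 31.6% (28.7 to 34.8), where 26.9% of the eligible bases lie. The fold was 1.18 (two-sided exact binomial p = 0.0017). The fullest 100 bp stretch was -300 to -200 bp with 97 summits (fold 1.32), and the emptiest relative to its bases was 100 to 200 bp downstream with 60 (fold 0.749). The excess did not pass the threshold in the conservative list (fold 1.11, exact p = 0.068), in replicate 1's own list (1.11, p = 0.32) or in the 445 stronger members (1.12, p = 0.13). With a shorter window, 500 bp before to 100 bp after the 5' end, the fold was 1.00 (exact p = 0.93).

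**Figure D3:**
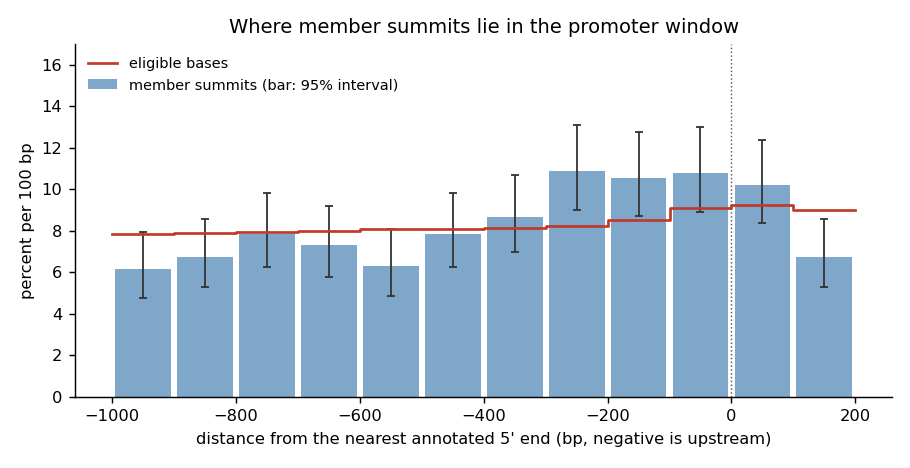
Percent of the 891 member summits in each 100 bp of the promoter window (bars, with 95% Wilson intervals) and percent of eligible bases there (line), against the distance from the nearest annotated 5' end. The bars exceed the line from -400 to 100 bp, and the last bar, 100 to 200 bp downstream, is below it.

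The summits lay mostly outside genes or in coding sequence, and introns held fewer than their share. Outside protein-coding genes lay 444 summits (49.8%, fold 1.08, exact binomial adjusted p = 0.033). In 5' UTRs lay 60 (fold 1.66, exact binomial test adjusted over 5 gene parts, p = 0.00041) and in 3' UTRs 55 (fold 1.53, adjusted p = 0.0035). Introns held 155 (fold 0.720, exact test, adjusted p = 5.8e-06). Coding sequence held 177 (fold 0.918, exact test, adjusted p = 0.21). The 5' UTR call was lost in each replicate's own list (folds 1.30 and 1.35), when internal 5' ends were dropped (1.32) and with the shorter window (1.26). The call outside genes was also lost without internal 5' ends (1.04, exact test, adjusted p = 0.30). The 3' UTR call was lost in replicate 1's own list (1.60, exact test, adjusted p = 0.090) and in the stronger members (1.28). Coding sequence passed as lower in both own lists (0.708 and 0.792).

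Some summits lay at the end of a neighbouring gene. Of the 55 summits in a 3' UTR, 51 lay in the 3' UTR of a different gene on the same strand, the arrangement of neighbouring genes that follow each other closely. The rule for members favours this count, because a close upstream neighbour on the opposite strand would usually make the promoter divergent. Eligible 3' UTR bases were not counted by strand of their gene, so no preference for such sites was tested. In all, 270 summits lay inside the gene whose window they were in, and 74 inside a gene of the opposite strand. For 156 members (17.5%) the window belonged to an internal 5' end and to no outermost one. Median signal was between 102 in coding sequence and 112.4 outside genes. The share in both own lists was 26.4% outside genes, 16.7% in 5' UTRs, 14.2% in introns and 14.1% in coding sequence.

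Chromosomes I and III had more of these peaks than their share of eligible bases, and V had fewer. Chromosome III held 160 members (fold 1.43, exact binomial test adjusted over 6 chromosomes, p = 1.1e-05), and I held 164 (fold 1.31, adjusted p = 0.00071). Chromosome V, which carries large families of chemoreceptor and other rapidly changing genes, held 145 (fold 0.679, exact test, adjusted p = 1.7e-07). The X held 119 (fold 0.855, exact test, adjusted p = 0.097), II had a fold of 0.962 and IV 1.05. The call on I was lost in both own lists (folds 1.32 and 1.18) and in the stronger members (1.17). The calls on III and V passed in both own lists, and III was lost in the stronger members (1.29, exact test, adjusted p = 0.078).

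**Figure D4:**
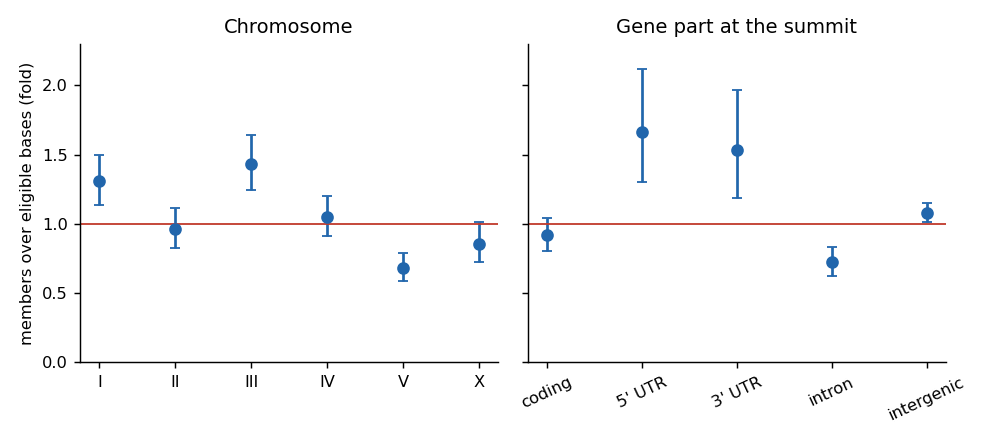
Share of members over share of eligible bases, as a fold with 95% Wilson intervals of the members' share, for the 6 nuclear chromosomes (left) and for the gene part at the summit (right). The line at 1 marks equal shares. Chromosomes I and III and both UTR kinds lie above it, and V and introns lie below it.

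The members marked 809 genes, or 4.14% of the 19554 protein-coding genes whose windows hold at least 1 eligible base. Of these, 709 genes had 1 member, 93 had 2, 6 had 3 and 1, mstr-1, had 4. The share was 2.56% with replicate 2's own list and 1.22% with replicate 1's, so the lists below are read against the share in the same setting. No test was run on the lists, which were taken by symbol. At 184 of the 809 genes the strongest member was in both own lists, and such counts per list below are read against this. Of 35 lists, 13 had a Wilson interval wholly above 4.14%. They were histones, ribosomal proteins, translation factors, the respiratory chain, splicing factors, the proteasome, ubiquitin conjugation, RNA polymerases and basal factors, the vacuolar ATPase, lysosome and autophagy, chromatin regulators, bHLH factors, and developmental timing and molting. Other lists of genes in general use were not above it, with 1 of 29 tRNA synthetases (3.45%) and 1 of 63 mitochondrial ribosomal proteins (1.59%). The 4 lists wholly below it were chemoreceptors, neuropeptides, C-type lectins, and F-box and BTB proteins, and with the own list of replicate 1 or 2 alone 1 or 2 lists were below.

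Genes of developmental timing and molting had members in 7 of 20 cases (35.0%, 18.1 to 56.7), the highest share in the main list. The peak at myrf-1, for a membrane-bound transcription factor of larval development, had a signal of 187, with 78.4 in replicate 1 and 102.8 in replicate 2. It was the only one of the 7 in both own lists, and its summit window held an EOR-1-like element. The others stood at lin-66 (166), its relative myrf-2 (130), the nuclear receptor gene nhr-85 (113), the casein kinase gene kin-20 (107), lin-42 (103.7), a period relative whose level cycles with the molts, and the cofactor gene mab-10 (97.2). All 7 were in the conservative list, which held the strongest member of 582 of all 809 genes. The share relative to all genes fell from 8.46 to 4.21 times when internal 5' ends were dropped, below histones (6.68), the proteasome (4.67) and the vacuolar ATPase (4.43). Histones were also higher in the own list of each replicate.

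Histone genes had members in 15 of 63 cases (23.8%, 14.99 to 35.6), and 12 of the 15 were in both own lists. Their 18 members had a median signal of 188, and 14 of them lay on chromosome IV in clusters of paired genes. The strongest was at his-59 with 331, and its value was 139 in replicate 1 and 164 in replicate 2. That at his-66 had 311, 141 and 178 in the same lists. Their summits often lay closer to a neighbouring histone gene. At 12 of the 18 the nearest 5' end was that of another histone gene, and 8 lay inside a histone gene. The summit in the window of his-59 lay in the coding sequence of his-60, 216 bp after its 5' end, and that of his-61 in his-62, 224 bp after it. With the shorter window, 500 bp before to 100 bp after the 5' end, the list's share fell from 5.75 to 1.52 times that of all genes. Histone genes are near-identical copies, so reads may have been divided among them.

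Ribosomal protein genes had members in 10 of 66 cases (15.2%, 8.44 to 25.7), 3 of them in both own lists. These were the peaks at rpl-3, at rpl-35 with 381 and at rps-24 with 355, all of them outside genes, 279, 420 and 334 bp upstream. The values at rpl-35 were 140 in replicate 1 and 236 in replicate 2, and at rps-24 they were 126 and 224. The GA repeat stood in 1 of the 11 ribosomal summit windows and the EOR-1-like element in 0. Among all members the shares were 24.4% and 6.17%, and with 11 windows no difference was tested. Translation factors had 5 of 39 (12.8%), led by eef-1A.2, an elongation factor gene, at 265. Its window held a GA repeat.

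Lysosome and autophagy genes had members in 17 of 106 cases (16.04%, 10.3 to 24.2), 6 of them in both own lists. Several of the 17 are named here. The initiation factor gene epg-9 had 213 with an EOR-1-like element, the lipid kinase regulator gene vps-15 had 136, and atg-9, for the membrane protein that carries lipid to the growing autophagosome, had 147. Both genes for the Atg8 family, whose proteins coat that membrane, had 2 members each. The stronger was 154 at lgg-1, with 42.6 in replicate 1 and 115.8 in replicate 2, and 137 at lgg-2. The tethering gene vps-39 had 210 and lmp-1, for a lysosomal membrane protein, 135. Of the 19 summit windows at these genes 7 held a GA repeat, where 24.4% of all members did. Vacuolar ATPase genes, whose proteins acidify the lysosome, had 3 of 16, at vha-13 (164), vha-10 (125) and vha-12 (122).

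Chromatin regulators had members in 16 of 108 cases (14.8%, 9.33 to 22.7), 3.58 times the share of all genes and 2.01 times with the shorter window. In both own lists were 4 of the 16, against 184 of all 809 genes with a member. They were cbp-1, for the p300/CBP acetyltransferase, with 277, hcp-3, for the centromeric histone H3 variant, with 245, swsn-7, for a SWI/SNF subunit, with 186, and the bromodomain gene bet-2 with 184. Of the 19 summit windows at these genes 9 held a GA repeat, against 24.4% of all members. The proteasome had 5 of 30 genes and ubiquitin conjugation 8 of 64. In the latter list the peak at ubc-25 had 178, that at ubc-9, for the SUMO-conjugating enzyme, 176, and that at the peptidase gene usp-4 191. RNA polymerases and basal factors had 8 of 66, splicing factors 6 of 50 and the respiratory chain 4 of 36.

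Among transcription factors, basic helix-loop-helix factors had members in 5 of 41 cases (12.2%), namely hlh-30, the TFEB relative that switches on autophagy genes, with 133, mxl-3 with 111.5, hnd-1 with 108, mdl-1 with 108 and hlh-11 with 84.4. None of the 5 was in both own lists, and 0 of 41 genes had one in replicate 1's own list. Nuclear hormone receptors had 11 of 268 (4.10%, 2.31 to 7.20), and homeobox genes had 1 of 95, ceh-39 with 128. Differences between these lists were not tested, and in replicate 1's own list all 3 had 0 genes. GATA and epidermal factors, a list that holds lin-26 itself, had 0 of 26, which leaves room for a share of up to 12.9%.

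Lists of cuticle, hedgehog-related and junction genes had intervals that include the share of all genes. Cuticle collagens had members in 6 of 173 cases (3.47%). The strongest, at col-42, had 271, with 135 in replicate 1 and 131 in replicate 2, and lay 64 bp inside the coding gene. Hedgehog-related and patched-related genes had 2 of 85. Junction and polarity genes had 3 of 30 (95% interval 3.46 to 25.6%), at spc-1, for alpha spectrin, with 190, pkc-3, for atypical protein kinase C, with 154, and let-805, for an attachment protein, with 85.5.

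The 4 lists with intervals below the share of all genes are large families. Genes named as chemoreceptors by their symbols had 11 of 1358 (0.810%), and 1 of the 11, srp-7, encodes a serpin that the symbol pattern also takes in. The strongest were srbc-38 with 243 and srh-2 with 224. C-type lectins, secreted proteins often linked to defence, had 0 of 233 (at most 1.62%). Neuropeptide genes had 1 of 149, and F-box and BTB genes 8 of 400 (2.00%). The smaller list of muscle genes had 0 of 56, with an interval that includes the share of all genes. All of these shares are of genes with eligible bases, and median eligible length was 1201 bp in most lists. It was 527 bp for histones, 535 bp for the proteasome, 597.5 bp for the respiratory chain and 606 bp for ribosomal proteins. Splicing factors had 626 bp and the nuclear pore 783.5 bp. It was longer, 2402 bp, for developmental timing and molting, 2256.5 bp for junction and polarity and 1412 bp for GATA and epidermal factors.

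**Figure D5:**
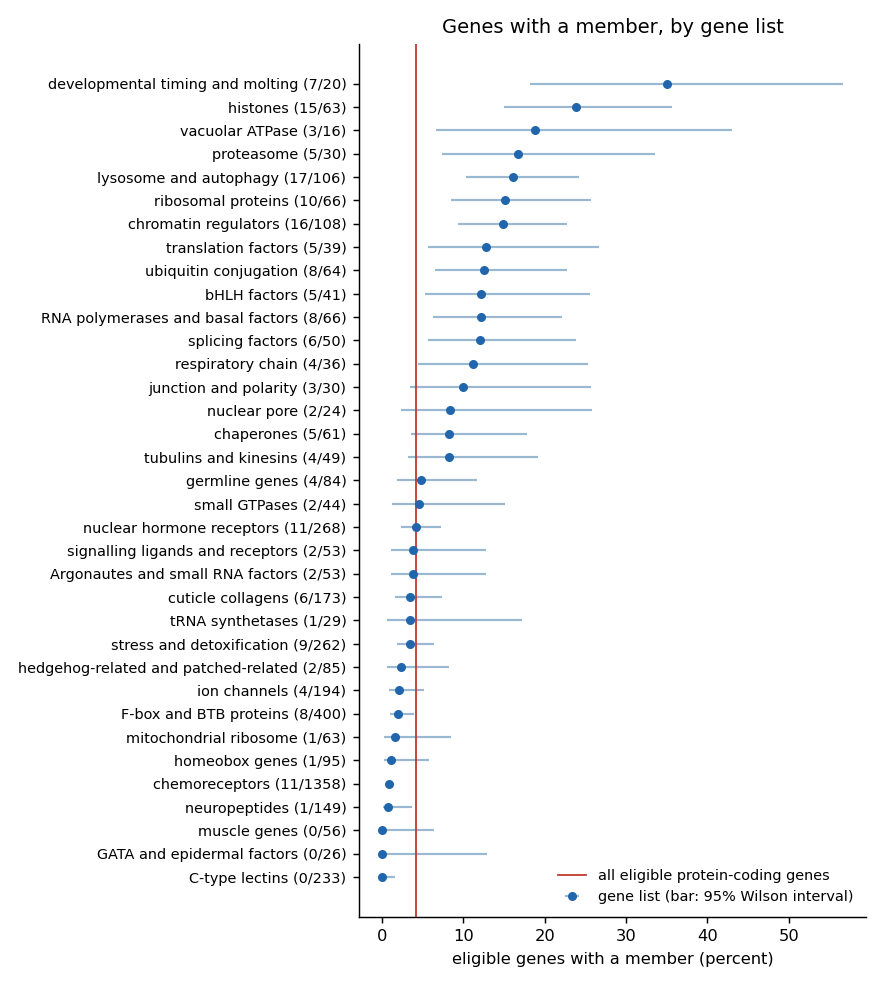
Percent of eligible genes with a member for 35 gene lists, with 95% Wilson intervals and counts in the labels, against the share of all eligible genes (line, 4.14%). Developmental timing (35.0%) and histones (23.8%) lie farthest to the right, and the chemoreceptor, neuropeptide, F-box and lectin intervals lie wholly to the left of the line.

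Other non-coding genes lay beside some members. Within 500 bp of a gene annotated as ncRNA stood 111 members (12.5%), against 7.07% of eligible bases. As near to a miRNA gene stood 6 (0.673%, against 0.232%), and to a lincRNA gene 8 (0.898%, against 0.343%). Near piRNA genes stood 9 members (1.01%), against 3.86% of eligible bases, and near pseudogenes 20 (2.24%), against 3.53%. These shares were not tested.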

How the data were processed

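Chromatin from 2 biological replicates of whole young adults was precipitated and sequenced, with fragments of 200 to 800 bp per the labels. Signal values and scaled scores up to 1000 come from the peak lists as the authors deposited them, made per the labels on assembly ce11 with a control. The ranked lists also hold the −log10 of the irreproducible discovery rate (IDR), deposited by the authors and not used for a call. The aligner, the peak caller and the IDR threshold were not stated. The lists give no read counts, so depth is unknown and intervals cover counting error only.

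The main list (3201 peaks) and the conservative list (2655) were made from both replicates, and the own lists hold 1193 and 2098 peaks. Coordinates were read on WBcel235, the same assembly as ce11: the last peak on every nuclear chromosome lies within its length. Genes came from Ensembl release 115 and sequence from RefSeq. Members were taken by the summit. Shares of summits were compared with shares of eligible bases by two-sided exact binomial tests. Motif shares were compared with flanks by Fisher's exact test, and means with other peaks by permutation tests of 100000 resamples, all adjusted after Benjamini-Hochberg at a threshold of 0.05. Peaks are not independent replicates, and these p-values do not measure the spread between animals. The binomial, Fisher and permutation tests were tried on simulated data, but not every step was. Tests ran in scipy 1.17.1 with numpy 2.4.6 and pandas 2.3.3, under Python 3.11.15, and plots in matplotlib 3.10.9.

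Members, gene lists and motifs were chosen with earlier results of these data known. Genes were named where they belonged to the 25 strongest members, to the 3 strongest of a list or to the 2 weakest members, and the choice of any further gene followed a look at its values. The tRNA box search, the motif counts by gene list, and the fits without members that overlap another peak or hold both boxes were added after seeing the data.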

Additional observations from a re-analysis of the deposited data

How the results depend on the processing

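Samples could not be paired because there is 1 group. Summit windows and the flanks of the same peak form matched sets, and Fisher's exact test did not use that matching. Of the results that answer a comparison, 81 alternative values stayed on the same side of the threshold or, for counts of calls, within 1.5 times. Of the others, 6 counts moved further, 4 values lost their call and 1 gained one. A count within 1.5 times can still lose calls, as the 3 chromosome calls were 2 with either replicate left out. The excess near the 5' end, 1.18 times, was 1.11 in the conservative list, 1.12 in the 445 stronger members and 1.00 with the shorter window, and 1.11 to 1.24 with 1 replicate left out. The 3 chromosome calls fell to 1 in the stronger members, and the 4 gene part calls fell to 2 when internal 5' ends were dropped. With 1 replicate left out, 3 to 7 motifs were more frequent than in flanks, against 8, and 3 to 6 less frequent, against 6. Gene lists below all genes were 1 to 2, against 4. The difference in mean GC content from peaks outside promoters, 0.13 percentage points, was 0.87 to 1.19, and the higher value passed (permutation test, adjusted p = 0.022). The TATA box reversed, from 0.663 times the share of flanks to 1.30 times that of GC-weighted stretches. In fits added after seeing the data, the 766 members that overlap no other peak gave a fold of 1.17 near the 5' end, 3 chromosomes, 3 gene parts and 7 more frequent motifs. The causes were not tested. With no read counts, what depth limits cannot be given.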
